A study of Mus musculus with 6 samples.

Results

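The genes described here were 37 mouse lysosome genes chosen by name, of the 32287 features in the gene matrix. They comprised 11 proteases (10 cathepsins and legumain), 10 other hydrolases, 4 soluble helper proteins, 6 membrane proteins, 5 genes of the lysosomal proton pump and 1 transcription factor, Tfeb. The list was set by gene name rather than by a measured value, but with earlier results of these data known. No listed gene was used to define a cell type. Of the 37 genes, 35 had enough counts to be tested, while Ctsk, the cathepsin of bone-resorbing cells, and Atp6v0d2, a pump subunit of the same cells, had 30 and 17 UMIs in all 57 libraries.

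The data came from 1 CITE-seq experiment, in which mRNA and DNA-tagged antibodies are counted in the same cells, on live CD11b+TOM+ cells sorted from inguinal lymph nodes of CD169Tom mice. These mice carry Cre at the Cd169 (Siglec1) locus and a Cre-dependent tdTomato reporter, so that TOM marks cells that have expressed CD169 at any time and their progeny, whatever they express when sampled. Of the 4 mice, 2 were unimmunized and 2 were taken at day 9 after immunization, and each carried 1 hashtag antibody before the cells were pooled for 2 10X captures. All mice carried both alleles, the unimmunized mice included, were on a C57BL/6 background and were over 6 weeks of age, and the antigen and adjuvant given to these 2 immunized mice are not given in the sources used here.

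The lysosome is the acidic compartment in which cells break down what they engulf and what they recycle. A proton pump, the vacuolar ATPase, acidifies it, cathepsins and other hydrolases digest protein, lipid, sugar and nucleic acid, and membrane proteins shield the boundary and export the products. Macrophages that clear dead cells depend on it, dendritic cells use the same proteases to prepare antigen for display, and TFEB is the transcription factor best known for switching many lysosome genes on together.

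The 12139 cells kept were sorted into 16 types by marker genes, with each type called "-like" because the markers rather than a deposited annotation gave the name. A gate was passed by 8963 cells (73.84%), and UMIs were summed per mouse and type into 57 libraries that each held 10 or more cells and 66670 to 12641070 UMIs. Levels are given as CPM, the UMIs of a gene scaled to 1000000 UMIs of its library. The macrophage class joined tingible body, other C1q-high and medullary sinus macrophage-like cells (11 libraries). The monocyte class held classical and nonclassical monocyte-like cells (8 libraries), the dendritic class monocyte-derived, type 1, type 2 and migratory dendritic-like cells (16 libraries), and the lymphoid class alpha-beta T-, gamma-delta T-, natural killer- and B-like cells (15 libraries). The 621 barcode sequences that occurred in each of the captures were not used. The mice differed in depth, with median UMIs per cell of 5877 and 6280 in the unimmunized mice and 9674 and 12728 in the immunized mice. The number of cells gated per mouse also differed, so that tingible body macrophage-like cells of the unimmunized mice gave only 1 library, of 10 cells. That library came from unimmunized mouse 1, as unimmunized mouse 2 had 8 such cells. A type entered a class only with a library of each condition. Leaving out unimmunized mouse 1 therefore also takes tingible body cells out of the macrophage class. Transcripts of Itgam, which encodes CD11b, had a median of 118 CPM in macrophage-like, 162 in monocyte-like, 53.8 in dendritic-like and 22 in lymphoid-like libraries, and the reporter transcript Tomato was at 0 in 4 of 11, 1 of 8, 6 of 16 and 7 of 15 libraries of these classes.

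Before the levels, the sequences through which TFEB is known to act are shown for the genes that hold them. TFEB binds the E-box CACGTG, and its preferred form in lysosome genes is the palindrome TCACGTGA. Of the 31 listed genes with a RefSeq promoter window (250 bases before to 50 after the gene start, GRCm38.p6), 10 (32.3%) held CACGTG on either strand, against 2187 of all 27025 genes (8.09%). The longer palindrome, which contains the shorter motif, lay in 5 of the 31 windows (16.1%) against 1.12% of the 27025. As this form is the one known from lysosome genes, its higher share in a list of such genes is no independent result. The 6 matches are printed below 5′ to 3′ on the strand of the gene, with the palindrome in capitals and up to 11 bases on either side, to show where each match lies and what flanks it. The core is identical because it was searched for.
Atp6v1a: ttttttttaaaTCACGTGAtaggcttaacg
Ctsa: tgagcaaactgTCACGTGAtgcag
Ctsd: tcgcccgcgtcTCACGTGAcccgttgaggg
Gla, distal: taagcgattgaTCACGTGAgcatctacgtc
Gla, proximal: tgagatctcggTCACGTGAgcaactctcgg
Mcoln1: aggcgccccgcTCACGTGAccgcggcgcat
The stretch of Atp6v1a, a catalytic pump subunit, was chr16:44139373-44139402 on the minus strand, with the palindrome 132 to 125 bases before the start that its window used. That of Ctsa, a serine carboxypeptidase, was chr2:164833749-164833772 on the plus strand, 13 to 6 bases before the start that its window used. That of Ctsd, the aspartic protease of the lysosome, was chr7:142387908-142387937 on the minus strand, 99 to 92 bases before the start. Gla, encoding alpha-galactosidase A, held 2 copies, at chrX:134601215-134601244 and chrX:134601182-134601211 on the minus strand, 228 to 221 and 195 to 188 bases before the start. Mcoln1, encoding the calcium channel TRPML1, held its copy at chr8:3500462-3500491 on the plus strand, 46 to 39 bases before the start. The stretches of Atp6v1a and Ctsa lie inside the RefSeq spans of their genes, chr16:44085402-44139702 and chr2:164832872-164841032. They are thus downstream of where those spans begin. A match is a stretch of letters and not a measured binding site.

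Taken as a share of all UMIs, the 37 genes were highest in tingible body macrophage-like cells and lowest in lymphoid-like cells. In tingible body macrophage-like cells, named after the phagocytes that clear dying germinal center B cells, they made up 1.85% of UMIs in unimmunized mouse 1 and 2.14% and 2.37% in the immunized mice. The paper calls its own cluster of this name putative. It could not exclude that T cell zone macrophages are not told apart from it. The share in the other C1q-high macrophage-like cells was 1.49% and 1.68% without immunization and 1.54% and 1.82% with it. Medullary sinus macrophage-like cells, which line the lymph channels of the node, lay well below both, at 0.99% and 0.83% in unimmunized and 0.91% and 0.95% in immunized mice, with no overlap. Inflammatory macrophage-like cells gave 1 library, of immunized mouse 2, at 2.05%.

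The mean share was 1.51% over macrophage-like (range 0.828 to 2.37%), 1.41% over monocyte-like (1.23 to 1.70%), 1.14% over dendritic-like (0.806 to 1.78%) and 0.457% over lymphoid-like libraries (0.362 to 0.673%). Every library of the macrophage, monocyte and dendritic classes was above every lymphoid-like library. The dendritic class was split, since monocyte-derived dendritic-like cells (1.39 to 1.78%) did not overlap with the type 1, type 2 and migratory dendritic-like cells (0.806 to 1.31%). By role, proteases made up 0.592% of UMIs in macrophage-like, 0.577% in monocyte-like, 0.377% in dendritic-like and 0.153% in lymphoid-like libraries. The proton pump genes ran in the same order at 0.139%, 0.122%, 0.0852% and 0.0486%, and so did the hydrolases at 0.124%, 0.106%, 0.0968% and 0.0429%. The soluble helpers did not, with dendritic-like libraries (0.415%) above monocyte-like ones (0.407%), between macrophage-like (0.454%) and lymphoid-like libraries (0.116%). The membrane proteins were at 0.194%, 0.191%, 0.161% and 0.0942%, and Tfeb was highest in monocyte-like libraries, at 0.00432% against 0.00287% in macrophage-like libraries. The share is set by the most abundant genes, and abundance at the 3′ end was not compared between genes.

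**Figure D1:**
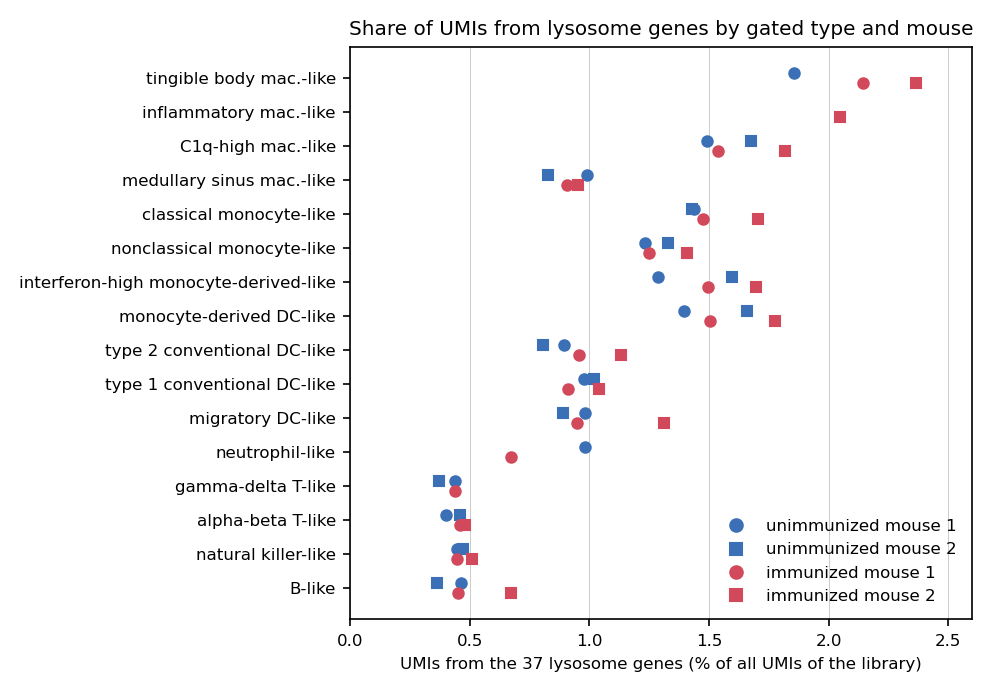
Percent of all UMIs of a library that came from the 37 lysosome genes (x axis), for each gated cell type (y axis); each point is 1 mouse, colored by immunization and shaped by mouse number. Tingible body macrophage-like libraries lie between 1.85 and 2.37%, medullary sinus macrophage-like libraries between 0.83 and 0.99%, and lymphoid-like libraries at or below 0.673%.

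The comparison of macrophage-like with lymphoid-like cells asked which lysosome genes set a phagocyte apart from cells that engulf little. The paper classes the B cells and NKT cells found in this sort as contaminating. Of the 35 genes tested, 30 were higher in macrophage-like cells and 0 were lower, by edgeR's quasi-likelihood test across all genes with a Benjamini-Hochberg adjusted p under 0.05 (30 had an unadjusted p under 0.05). Over all 12186 genes tested, 16.2% were higher and 15.6% lower. The median log2 difference was 1.45 over the lysosome genes and -0.11 over all genes. By role, 10 of 10 proteases tested, 8 of 10 hydrolases, 4 of 4 soluble helpers, 4 of 6 membrane proteins and 4 of 4 pump genes tested were higher, and Tfeb was not called. Of 65 further lysosome genes, 38 were higher and 4 lower, the latter including the cathepsin inhibitor Cst7.

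Among the proteases, Ctsl showed the largest difference. Ctsl, cathepsin L, is a cysteine endopeptidase, and its level was 79.3 to 219 CPM (median 105) in the 11 macrophage-like libraries against 0 to 27.5 CPM (median 14.2) in the 15 lymphoid-like libraries, with no overlap. The log2 difference was 4.01 ± 0.34 (SE, n = 4 mice, adjusted p = 6.63e-13 by edgeR's quasi-likelihood test), in the same direction in 4 of 4 mice. Here and below, the SE and p come from a fit of 57 libraries with no mouse term. They treat libraries of the same mouse as independent, and the SE is not a spread over mice. Ctsb, cathepsin B, a cysteine protease abundant in phagocytes, had 348 to 1298 CPM (median 608) against 44.1 to 273 CPM (median 107), again with no overlap, and a log2 difference of 2.68 ± 0.14 (edgeR adjusted p = 3.55e-19). Ctss, cathepsin S, which cuts the invariant chain of MHC class II, had 675 to 3222 CPM (median 2223) against 206 to 877 CPM (median 419), a log2 difference of 2.17 ± 0.10 (edgeR adjusted p = 4.55e-21), and the ranges overlapped through the medullary sinus libraries.

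The other proteases were higher by less or with wider error. The log2 difference was 2.36 ± 0.22 for Lgmn, the asparagine-specific protease legumain, and 2.31 ± 0.12 for Ctsh, an aminopeptidase. It was 2.25 ± 0.10 for the carboxypeptidase Ctsz and 2.04 ± 0.17 for Ctsc, which activates granzymes and other serine proteases of granules. Ctsa was higher by 1.45 ± 0.15, and Ctsd by only 0.78 ± 0.19 (edgeR adjusted p = 0.00114). Ctsf, a sparse cathepsin at 0 to 17.2 CPM in macrophage-like and 0 to 4.46 CPM in lymphoid-like libraries, was called with a log2 difference of 3.47 ± 1.05 (edgeR adjusted p = 0.00883), but only 2 of 4 mice were higher without overlap. Without unimmunized mouse 1, and so without tingible body cells in the class, the calls of Lgmn (1.50) and Ctsd (1.60) were lost. Without immunized mouse 1 the call of Lgmn was also lost, at 0.43 on the log2 scale.

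Helpers and membrane proteins followed. Grn, the precursor of the granulins, had 165 to 717 CPM in macrophage-like and 43.2 to 111 CPM in lymphoid-like libraries and the smallest adjusted p of the list (log2 difference 2.85 ± 0.11, edgeR adjusted p = 7.97e-23). Psap, the precursor of the saposins that present lipids to hydrolases, was higher by 2.40 ± 0.11 on the log2 scale, Npc2, the soluble carrier of cholesterol, by 1.55 ± 0.09, and Gm2a, the activator protein for ganglioside breakdown, by 1.20 ± 0.11. Cd63, a tetraspanin of late endosomes, had 91.8 to 780.0 CPM against 0 to 79.3 CPM (3.58 ± 0.35). The membrane glycoproteins Lamp1 and Lamp2 were higher by 2.27 ± 0.11 and 1.36 ± 0.13, and the cholesterol exporter Npc1 by 0.58 ± 0.20 (edgeR adjusted p = 0.0251), with 2 of 4 mice in that direction and -1.21 without unimmunized mouse 1. Laptm5, a lysosomal membrane protein of blood cells in general, was level at 359 to 955 CPM against 382 to 903 CPM (log2 difference 0.14 ± 0.08, edgeR adjusted p = 0.234).

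The hydrolases were led by the phosphatase Acp2 (log2 difference 2.69 ± 0.17), the acid ceramidase Asah1 (2.54 ± 0.15) and Hexa, a subunit of beta-hexosaminidase (2.40 ± 0.14). Smaller differences were called for Gusb, beta-glucuronidase (1.38 ± 0.13), Acp5, tartrate-resistant acid phosphatase (1.30 ± 0.19), Lipa, acid lipase (1.26 ± 0.24), Dnase2a, which digests DNA of engulfed cells (0.97 ± 0.16), and Man2b1, alpha-mannosidase (0.88 ± 0.14). The calls of Acp5 (0.69), Lipa (0.89) and Dnase2a (0.33) were lost without unimmunized mouse 1, and those of Man2b1 (0.41) and Lipa (1.20) without immunized mouse 1. Glb1, beta-galactosidase, reached 0 to 54.5 CPM against 0 to 31.4 CPM and was not called (log2 difference 0.27 ± 0.28). Gla and Mcoln1, 2 of the genes with the TFEB palindrome, were near the floor, with medians of 4.87 against 2.70 CPM and 8.97 against 9.26 CPM, and were not called. For Gla no stable error of the difference could be fitted.

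The pump genes were higher by 1.74 ± 0.12 for Atp6v0c, which forms the proton-carrying ring in the membrane, 1.41 ± 0.16 for Atp6v1b2 and 1.22 ± 0.22 for Atp6v1a, the subunits of the catalytic head, and 1.01 ± 0.15 for the accessory Atp6ap1. Tfeb had 0 to 44.8 CPM (median 30.4) in macrophage-like and 0 to 69.6 CPM (median 22.9) in lymphoid-like libraries, and its log2 difference of 0.42 ± 0.27 was not called (edgeR adjusted p = 0.276). Of the listed genes with CACGTG in the promoter window, 7 of 10 tested were higher (median log2 difference 1.34), and of those with a window without it, 18 of 20 tested (median 1.46). Among the 65 further lysosome genes, the largest differences were those of Slc11a1, a metal transporter of phagosomes (4.01 ± 0.45), Cd68, the glycoprotein macrosialin (3.23 ± 0.19), Galc, a galactolipid hydrolase (3.20 ± 0.30), Mitf, a relative of Tfeb (3.06 ± 0.74), and the phospholipase Pla2g15 (2.88 ± 0.43).

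Macrophage transcripts were also counted in the lymphoid-like libraries. There Lyz2 had 615 to 5652 CPM against 6695 to 25257 CPM in macrophage-like libraries, C1qa 0 to 241 against 730.1 to 4753 CPM, Csf1r 0 to 136 against 218 to 638 CPM and Adgre1 0 to 45.4 against 0 to 396 CPM. Within the lymphoid class, the B-like library of immunized mouse 2 had both the highest sum of 6 macrophage markers (6444 CPM, against 638 in the B-like library of unimmunized mouse 2) and the highest lysosome share. Their part in the lymphoid levels was not tested. Without the 399 cells that passed gates of a lymphoid and of a myeloid type, 31 of the lysosome genes were higher and 0 lower. The whole tested set moved upward there too. It had 2329 higher and 1545 lower calls among 12116, in place of 1970 and 1902 among 12186. Its median log2 difference went from -0.11 to 0.04. Taking out these cells did not test macrophage transcripts counted in the lymphoid-like cells that remained.

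**Figure D2:**
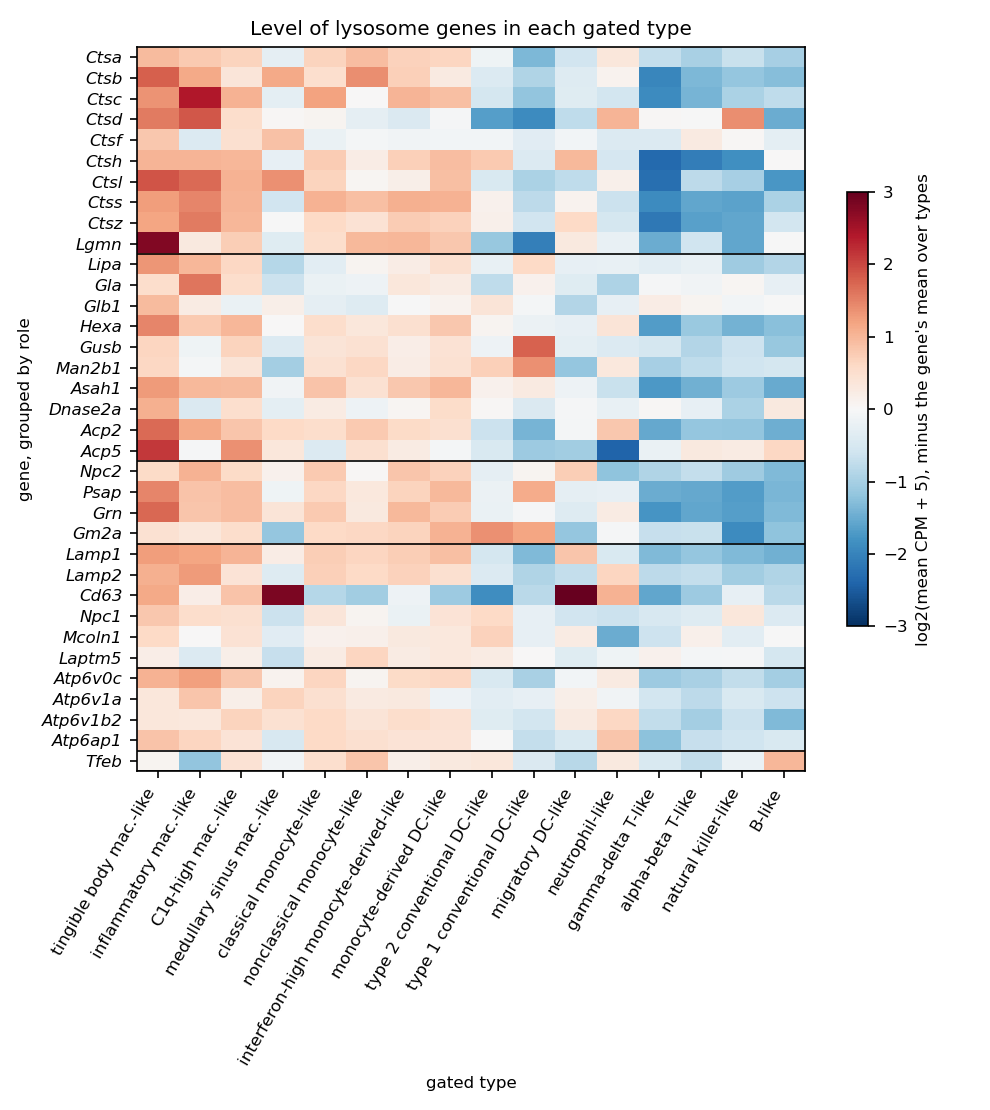
Level of each tested lysosome gene in each gated type, as log2 of the mean CPM plus 5 minus the gene's own mean over types, with genes grouped by role and separated by lines. Red cells mark types above a gene's mean and blue cells types below it; most genes are above their mean in tingible body and C1q-high macrophage-, monocyte- and monocyte-derived dendritic-like cells and below it in the 4 lymphoid-like types.

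Against the monocyte-like cells of the same nodes, the list split. Of 35 genes, 10 were higher in macrophage-like cells and 7 lower at a Benjamini-Hochberg adjusted p under 0.05 in edgeR's quasi-likelihood test, where 4.72% of all genes were higher and 13.8% lower. The median log2 difference was 0.06 over the list and -0.24 over all genes, and among the 65 further lysosome genes 10 were higher and 10 lower. Cd63 had the largest difference, at 17.5 to 84.8 CPM (median 28.6) in the 8 monocyte-like libraries, all below the 91.8 CPM of the lowest macrophage-like library (log2 difference 2.51 ± 0.26, edgeR adjusted p = 7.98e-10).

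The genes higher in macrophage-like cells were mostly proteases and hydrolases. Acp5 differed by 1.46 ± 0.20 and Ctsl by 1.07 ± 0.21 on the log2 scale, both in 4 of 4 mice, and Ctsl had 25.6 to 104 CPM in monocyte-like libraries. Ctsf, Glb1, Ctsd, Grn, Dnase2a, Acp2 and Hexa were higher by 2.13 ± 0.73, 0.88 ± 0.31, 0.65 ± 0.20, 0.48 ± 0.11, 0.44 ± 0.15, 0.40 ± 0.14 and 0.37 ± 0.13. The 7 lower genes included Gm2a (-0.72 ± 0.12), at 597 to 672 CPM in monocyte-like against 120.0 to 693 CPM in macrophage-like libraries, and Laptm5 (-0.60 ± 0.09), at 666 to 1310.2 CPM against 359 to 955 CPM. The others were Man2b1 (-0.50 ± 0.14), Ctss (-0.48 ± 0.11), Ctsa (-0.42 ± 0.14), Atp6ap1 (-0.40 ± 0.14) and Lamp2 (-0.40 ± 0.12). Medullary sinus cells had the lowest mean of the 3 macrophage-like types for each of the 7 genes. For Ctss, tingible body (mean 2693 CPM) and other C1q-high macrophage-like cells (2279.5 CPM) were above the monocyte-like mean of 2222 CPM and medullary sinus cells (754 CPM) far below it. Tingible body cells were also above the monocyte-like mean for Ctsa, Lamp2, Man2b1 and Atp6ap1, whereas for Gm2a and Laptm5 all 3 macrophage-like types were below it. Only Cd63, Gm2a and Laptm5 passed the threshold in every other setting tried. Fewer of the 17 calls held without unimmunized mouse 1 or without immunized mouse 1, and fewer of all genes were called there as well. Without unimmunized mouse 1 the log2 difference turned to -1.24 for Glb1, -0.090 for Dnase2a and -0.022 for Grn. That setting also took tingible body cells out of the macrophage class, and the part of this in the change was not tested.

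Against dendritic-like cells, 20 of the 35 genes were higher in macrophage-like cells and 3 lower by the same edgeR test, where 7.03% of all genes were higher and 13.5% lower. The median log2 difference was 0.41 over the list and -0.23 over all genes. Of the 65 further lysosome genes, 24 were higher and 8 lower. These are differences of class means and need not hold for each dendritic-like type. The share of the list in monocyte-derived dendritic-like cells (1.39 to 1.78%) overlapped with that in other C1q-high macrophage-like cells (1.49 to 1.82%). So did that of the proteases, at 0.46 to 0.74% against 0.54 to 0.76%. These types were not compared by a test of their own. Proteases accounted for 9 of the 20, with log2 differences of 1.91 ± 0.22 for Ctsl, 1.75 ± 0.19 for Lgmn, 1.65 ± 0.19 for Ctsd, 1.33 ± 0.12 for Ctsb and 0.96 ± 0.16 for Ctsc. The calls of Lgmn (1.66, edgeR adjusted p = 0.216) and Ctsc (0.72, edgeR adjusted p = 0.133) were lost without unimmunized mouse 1, and that of Lgmn (1.18, edgeR adjusted p = 1) without immunized mouse 1. Ctsh did not follow, at 217 to 927 CPM in macrophage-like and 184 to 936 CPM in dendritic-like libraries (-0.15 ± 0.10, edgeR unadjusted p = 0.157, not called). Of the hydrolases, Acp5 had the largest difference (2.07 ± 0.19), at 34.8 to 285 CPM against 7.28 to 55.9 CPM, followed by Acp2 (1.53 ± 0.14). Grn (0.93 ± 0.09), Lamp1 (0.81 ± 0.10) and Atp6v0c (0.81 ± 0.11) were also higher.

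The 3 genes lower in macrophage-like cells were Gm2a (-0.77 ± 0.10), Man2b1 (-0.40 ± 0.12) and Laptm5 (-0.28 ± 0.08). Gm2a reached 979 to 1191 CPM in the 4 type 2 and 782 to 1229 CPM in the 4 type 1 conventional dendritic-like libraries, all above the highest macrophage-like library at 693 CPM. Fewer of the 23 calls held without unimmunized mouse 1, where Dnase2a turned from 0.41 to -0.045, or without immunized mouse 1. Calls over all genes were fewer there as well. The lower calls of Man2b1 (without unimmunized mouse 1) and Laptm5 (without either immunized mouse) were among those lost. With library sizes alone in place of TMM normalization, which moves the median of all genes from -0.23 to -0.12, the calls were 22 higher and 1 lower. Only 8 of the 23 calls passed the threshold in every other setting tried. These were Acp2, Ctsd, Acp5, Cd63, Gm2a, Grn, Ctsl and Ctsb.

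**Figure D3:**
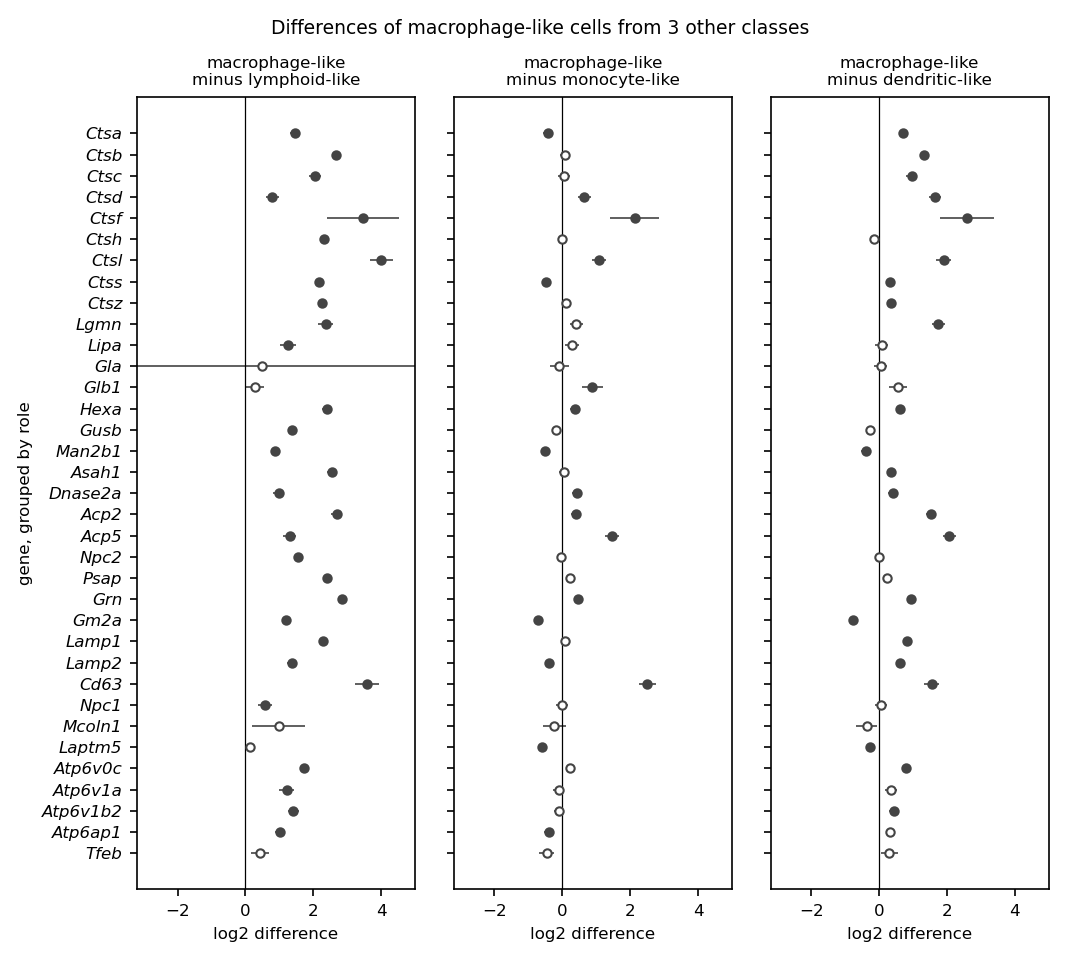
Log2 difference (x axis, with bars of 1 SE) of macrophage-like minus lymphoid-like, monocyte-like and dendritic-like cells for each tested lysosome gene (y axis), in 3 panels. Filled points passed the adjusted threshold of 0.05; the lymphoid panel has 30 filled points right of 0 and none left of it, and Gla's error runs beyond its axis.

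Within the macrophage class, tingible body macrophage-like cells were set against the other C1q-high macrophage-like cells, the nearest type. Lgmn and Ctsb were higher and 0 genes lower (9 of 35 at an unadjusted p under 0.05, against 7.03% of all genes), in the quasi-likelihood test of edgeR, Benjamini-Hochberg adjusted, where 0.164% of all genes were higher and 0.0492% lower. Lgmn was at 454 CPM in unimmunized mouse 1 and at 546 and 394 CPM in the immunized mice in tingible body macrophage-like cells. The other C1q-high cells had 85.2 and 174 CPM in the unimmunized and 88.3 and 91.4 CPM in the immunized mice, so that the types did not overlap. The log2 difference was 2.04 ± 0.32 (SE, n = 3 mice, edgeR adjusted p = 0.00024).

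Ctsb was at 891 CPM in unimmunized mouse 1 and at 1298 and 1139 CPM in the immunized mice in tingible body macrophage-like cells, against 381, 348, 487 and 425 CPM in the other C1q-high cells of unimmunized mice 1 and 2 and immunized mice 1 and 2. The lowest tingible body library was above the highest of the others, and the log2 difference was 1.25 ± 0.24 (edgeR adjusted p = 0.00797). Grn was the next by unadjusted p and did not pass (0.68 ± 0.18), nor did Glb1 (1.50 ± 0.55), Acp2 (0.77 ± 0.26) or Acp5 (0.84 ± 0.33). DESeq2, library sizes alone and the HTODemux hashtag calls each gave 3 genes. Over all genes, 21 were higher and 4 lower of 12186 with DESeq2 and 25 and 6 of 12186 with library sizes alone. With HTODemux 44 were higher and 14 lower of 11926. Leaving out unimmunized mouse 2 lost the call of Ctsb (1.25) and left that of Lgmn. Tingible body macrophage-like cells were deeper, at a median of 14846 UMIs per cell against 13722. Of the 65 further lysosome genes, edgeR called 0.

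Medullary sinus macrophage-like cells, known to filter particles from lymph, held less of most lysosome transcripts than the other C1q-high macrophage-like cells. In the quasi-likelihood test of edgeR, Benjamini-Hochberg adjusted, 22 of 35 genes were lower and 2 higher, where 9.78% of all genes were lower and 10.1% higher. The median log2 difference was -0.82 over the list and 0.00 over all genes. Ctss was at 775 and 817 CPM in the unimmunized and 747 and 675 CPM in the immunized mice in medullary sinus cells, and at 2000.3, 2223, 2247 and 2648 CPM in the other C1q-high cells in that order of mice. The types were far apart in every mouse (-1.62 ± 0.17, n = 4 mice).

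Gm2a behaved alike, at 182, 226, 212 and 120.0 CPM against 556, 613, 580.5 and 693 CPM in the same order (-1.67 ± 0.19). Further lower genes were Lipa (-1.78 ± 0.35), Ctsh (-1.41 ± 0.19), Ctsc (-1.37 ± 0.29), Man2b1 (-1.24 ± 0.23), Gusb (-1.20 ± 0.19), Atp6ap1 (-1.15 ± 0.25) and Psap (-1.11 ± 0.18), each in 4 of 4 mice. The 2 higher genes were Cd63 and Ctsb. Cd63 was at 505, 443, 491 and 780.0 CPM in medullary sinus cells against 108, 118, 235 and 91.8 CPM, with no overlap (1.93 ± 0.29), and Ctsb was at 912, 608, 792 and 495 CPM against 381, 348, 487 and 425 CPM (0.81 ± 0.22). Ctsb lost its call without unimmunized mouse 1 (0.70) and without immunized mouse 1 (0.44), as did Lipa (-1.07) and Atp6ap1 (-0.76) without unimmunized mouse 1. Ctsl was not called, at 104 to 123 CPM against 79.3 to 108 CPM, and neither were Atp6v1a (0.41 ± 0.24), Atp6v1b2 (-0.21 ± 0.22) and Acp2 (-0.16 ± 0.23). Only 9 of the 24 calls passed the threshold in every other setting that gave a value. These were Ctss, Laptm5, Gusb, Ctsc, Man2b1, Ctsh, Psap, Cd63 and Gm2a. Of the 65 further lysosome genes, 21 were lower and 8 higher, and of the 13 other pump genes 6 were higher and 4 lower. Median UMIs per cell were 2274 in medullary sinus and 13722 in the other C1q-high macrophage-like cells, and the part of this gap in depth was not tested.

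**Figure D4:**
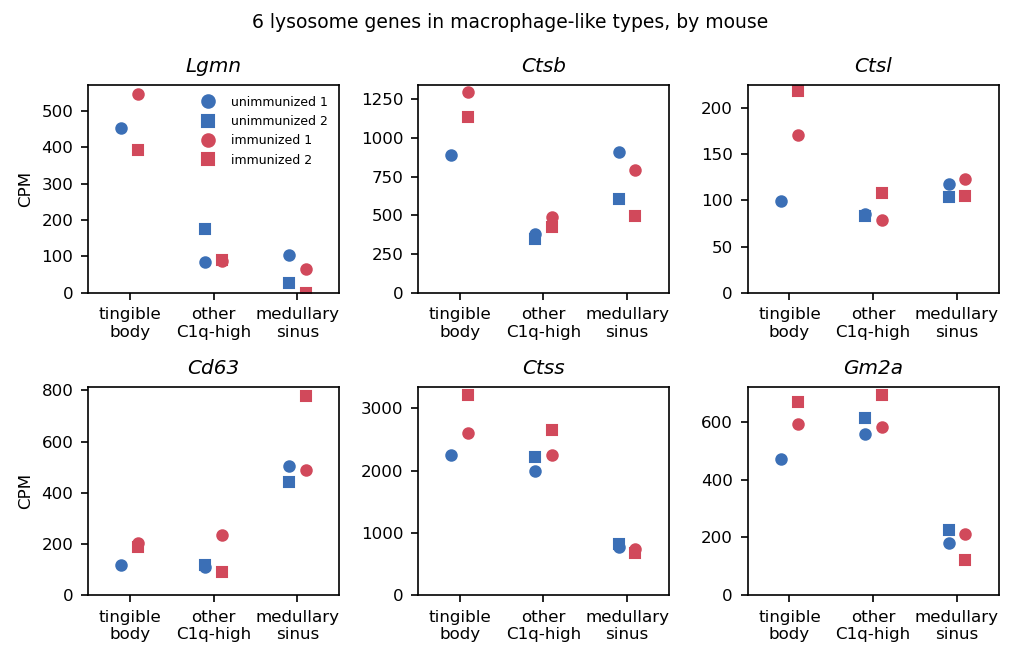
CPM of 6 lysosome genes (y axis of each panel) in tingible body, other C1q-high and medullary sinus macrophage-like cells (x axis), with 1 point per mouse, colored by immunization. Lgmn is highest in tingible body cells, Ctsb is lowest in the other C1q-high cells, Cd63 is highest in medullary sinus cells at 443 to 780.0 CPM, and Ctss and Gm2a are lowest there.

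Across the types, most genes followed a shared profile and a few departed from it. As a description over 15 types, with every type taken from the same 4 mice, Pearson's r of a gene with the mean of the other listed genes on the log2(CPM + 5) scale was 0.962 for Hexa, 0.959 for Grn, 0.944 for Atp6v0c and 0.942 for Ctss. It was lowest for Glb1 (0.150), Cd63 (0.209), Ctsd (0.251), Acp5 (0.352) and Tfeb (0.355). Tingible body macrophage-like cells had the highest mean CPM for 17 of the 37 genes, a mean over 1 unimmunized and 2 immunized libraries. Only for Lgmn, Grn and Acp2 did their libraries not overlap with those of the next type, which for Acp2 was 1 inflammatory library. The single inflammatory library was highest for 9 genes, among them Ctsc at 2907 CPM.

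The departures belonged to named types. Cd63 was highest in migratory dendritic-like cells, at 905 and 1052 CPM in the unimmunized and 811 and 684 CPM in the immunized mice, overlapping with medullary sinus cells only through the 780.0 CPM of immunized mouse 2, and it was at most 62.6 CPM in the other 3 dendritic-like types. Gusb (215 to 397 CPM) and Man2b1 (385 to 519 CPM) were highest in type 1 conventional dendritic-like cells, the dendritic cells that take up dead cells for display on MHC class I, with no overlap with the next type. Ctsd was at 406 to 609 CPM in natural killer-like cells, above its 25.8 to 219 CPM in dendritic-like libraries. Tfeb was highest in B-like cells, at 31.2 to 69.6 CPM. Laptm5 was highest in nonclassical monocyte-like cells, at 1310.2 and 1071 CPM in the unimmunized and 1023 and 890.0 CPM in the immunized mice.

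Immunization was compared within 12 types that had libraries from all 4 mice. Of the 420 pairs of a tested gene and a type, 3 passed the quasi-likelihood test of edgeR, Benjamini-Hochberg adjusted, and 93 (22.1%) had an unadjusted p under 0.05, against 8.98% of the pairs over all genes. Ctsl rose in interferon-high monocyte-derived-like cells, from 21.3 and 28.9 CPM in the unimmunized to 54.1 and 82.6 CPM in the immunized mice, without overlap (log2 difference 1.72 ± 0.43, n = 2 against 2 mice, edgeR adjusted p = 0.0222). Gm2a rose in migratory dendritic-like cells, from 141 and 76.1 to 207 and 317 CPM, also without overlap (1.13 ± 0.26, edgeR adjusted p = 0.018). Cd63 fell in classical monocyte-like cells, from 84.8 and 28 to 25.2 and 17.5 CPM, where unimmunized mouse 1 stood apart (-1.53 ± 0.42, edgeR adjusted p = 0.0402). Cd63 lost its call without that mouse (-0.22), Gm2a without unimmunized mouse 2 (0.90) or immunized mouse 2 (0.78), and Ctsl without unimmunized mouse 1 (1.39), unimmunized mouse 2 (1.84) or immunized mouse 2 (1.38).

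The share of all 12186 genes that rose and fell with immunization set the scale for these calls. DESeq2 called 4 pairs in place of 3. It kept only Gm2a in migratory dendritic-like cells, where 62 of 2736 genes were higher and 24 lower by DESeq2. Its others were Ctsc, Lamp1 and Atp6v0c in type 1 conventional dendritic-like cells, where 12 of 2027 were higher and 2 lower. By edgeR the share of all genes was 0.254% and 1.47% in interferon-high and 0.648% and 0.427% in migratory dendritic-like cells. It was 0.131% and 1.78% in classical monocyte-like cells, the last of the 3 types with a call. In the other types edgeR called 0 lysosome genes, and the share of all genes that rose and fell past the adjusted threshold was 0.172% and 0.0328% in alpha-beta T-, 0.0246% and 0.041% in B-, 0% and 0% in natural killer- and 0.0328% and 0.041% in nonclassical monocyte-like cells. It was 0.00821% and 0.0328% in C1q-high and 0.0164% and 0.14% in medullary sinus macrophage-like cells, and 0.123% and 0.542% in monocyte-derived, 0% and 0% in type 1 and 0.00821% and 0.0492% in type 2 dendritic-like cells.

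At an unadjusted p under 0.05 in edgeR, the lysosome genes were more frequent than all genes in 10 of the 12 types. Migratory dendritic-like cells had 18 of 35, where 1457 of all 12186 genes had such a p. Type 1 and type 2 dendritic-like cells had 10 each (6.70% and 7.66% of all genes) and monocyte-derived dendritic-like cells 5 (10.6%). Classical monocyte-like cells had 9 (12.1%), interferon-high cells 8 (12.6%), nonclassical monocyte-like cells 7 (8.93%) and C1q-high macrophage-like cells 7 (8.72%). B-like cells had 10 (6.54%) and alpha-beta T-like cells 8 (7.48%). The exceptions were natural killer-like cells with 1 (4.28%) and medullary sinus macrophage-like cells with 0 (10.2%). The median log2 difference over the list was highest in migratory dendritic-like cells (0.51, against 0.01 over all genes). It was lowest in medullary sinus macrophage-like cells (-0.03), where the median over all genes was also low (-0.16). In C1q-high macrophage-like cells it was 0.33, against 0.24 over all genes. Of the 65 further lysosome genes, 3 rose in migratory dendritic-like cells, and 1 fell in each of classical monocyte-, interferon-high and monocyte-derived dendritic-like cells.

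In 138 of the 420 pairs (32.9%) both immunized mice were above both unimmunized mice, and in 70 (16.7%) both were below. Over all genes tested in the same 12 types these shares were 16.9% and 20.6%. Ctsc and Atp6v0c, the 2 genes with the most such types, were above in 11 of 12 types each, and neither passed edgeR's adjusted test in any type. How many of all genes reached as many types was not counted, and the types share the same mice. Other settings did call them. DESeq2 called both in type 1 conventional dendritic-like cells (Ctsc 1.75, DESeq2 adjusted p = 0.014, and Atp6v0c 1.12, DESeq2 adjusted p = 0.0364), where 12 of 2027 genes were higher. With no filter on low counts edgeR called Ctsc in 8 and Atp6v0c in 7 types. Over all genes that setting also raised the higher calls, from 16 of 12186 to 235 of 19979 in classical monocyte-like cells. In C1q-high macrophage-like cells they went from 1 to 135. In type 1 conventional dendritic-like cells Ctsc was at 141 and 55.2 CPM in the unimmunized and 185 and 564 CPM in the immunized mice, and in classical monocyte-like cells at 932 and 908 against 1173 and 2024 CPM. Its log2 difference ran from 0.29 in natural killer-like to 1.59 ± 0.43 in type 1 dendritic-like cells (edgeR adjusted p = 0.241). Atp6v0c was at 213 and 180.3 against 407 and 507 CPM in type 1 dendritic-like cells and at 488 and 346 against 607 and 1008 CPM in migratory dendritic-like cells (0.95 ± 0.27, edgeR adjusted p = 0.0636).

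Immunized mouse 2, the most deeply sequenced, had the highest level of Ctsc in 11 and of Atp6v0c in 12 of the 12 types. Among other proteases, both immunized mice were above both unimmunized mice in 9 types each for Ctsa and Ctss and in 7 each for Ctsh and Ctsz. For Ctss both were below in 1 type. Immunized mouse 2 had the highest level in 5 types for Ctsa, 10 for Ctss, 8 for Ctsh and 11 for Ctsz. Laptm5 was the reverse, with both immunized mice below both unimmunized mice in 9 types. The types share the same 4 mice and are not independent of each other, and no such counts of types were made over all genes.

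The difference in immunization between macrophage-like (C1q-high and medullary sinus) and lymphoid-like cells (alpha-beta T-, natural killer- and B-like) was tested as an interaction. By edgeR 0 of 35 genes passed (3 at an unadjusted p under 0.05, or 8.57%, against 6.15% of all genes), with 0% of all genes higher and 0.00821% lower, and DESeq2 and limma-voom also called 0. Each animal gave libraries to many types, and with the mouse as a random effect in limma-voom 12 pairs were called in place of 3, among them Atp6v0c in 4 types, Ctsl in 2, Ctsz in 2 and, falling, Laptm5 in 1. Of the 3 pairs called by edgeR, Ctsl in interferon-high cells passed there as well, and Cd63 in classical monocyte-like and Gm2a in migratory dendritic-like cells did not. Over all genes limma-voom called 140 higher and 857 lower in classical monocyte-like cells, in place of 16 and 217. In migratory dendritic-like cells it called 37 and 80 in place of 79 and 52. Without immunized mouse 1 more pairs were called, and so were more of all genes in most types, with the lone immunized mouse assumed to vary like the other libraries. Leaving out any of the other mice gave fewer pairs. Macrophage markers moved with immunization too. The sum of the 6 markers was higher in both immunized mice than in both unimmunized mice in 9 of the 12 types, the others being alpha-beta T-, B- and medullary sinus macrophage-like cells. It was 3354 and 1944 CPM in the unimmunized and 7780.2 and 15370 CPM in the immunized mice in migratory dendritic-like cells, and 14619 and 14630 against 24183 and 24453 CPM in interferon-high cells. In type 1 conventional dendritic-like cells it was 2816 and 1126 against 4799.5 and 5791 CPM. The part of these markers in the differences of Gm2a, Ctsl, Ctsc and Atp6v0c was not tested.

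**Figure D5:**
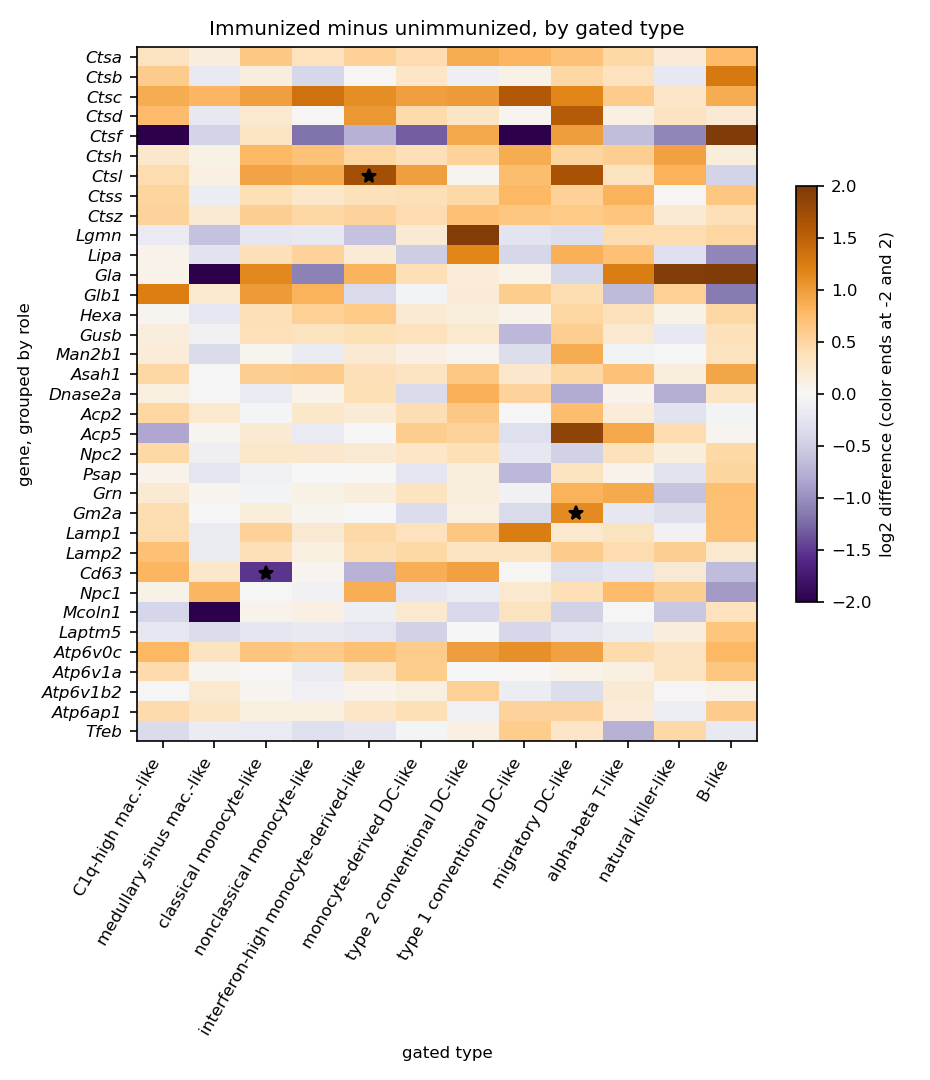
Log2 difference of immunized minus unimmunized mice for each tested lysosome gene (y axis) in 12 gated types (x axis), with colors ending at -2 and 2 and a star where the adjusted threshold was passed. The 3 stars are Ctsl in interferon-high, Gm2a in migratory dendritic-like and Cd63 in classical monocyte-like cells; Ctsc and Atp6v0c are above 0 in all 12 types without a star.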

How the data were processed

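The authors aligned the 2 captures to mm10 and made UMI counts per gene and barcode with Cell Ranger 4.0.0, joined by its aggr step; the deposited counts, and the hashtag and antibody counts the authors made with CITE-seq-count, are whole numbers and were used as deposited. The sources used here do not say whether aggr equalized read depth. Of 18662 barcodes, 1242 whose sequence occurred in each of the captures were not used, since the hashtag counts carry no capture number. A cell was given to a mouse when 1 hashtag held at least 80% of its hashtag counts and at least 10 counts, and cells with over 25% mitochondrial UMIs were removed, leaving 2828 and 537 cells of the unimmunized and 4052 and 4722 of the immunized mice, with 18943001, 3817845, 39020653 and 61983132 UMIs. Doublets within a mouse were not removed. Precision is limited by 2 mice per condition.

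Cells were gated by marker genes with a UMI, at least 3 of a type's markers by default, with thresholds set after the data were seen. The tingible body gate required 3 markers and 2 C1q genes, the C1q-high gate 4 with all 3 C1q genes and at most 1 tingible body or medullary marker, and the medullary gate 2. A gate that asks for several detected markers favors deeper cells. The leading genes of the C1q-high gate included Mgl2, a marker of the monocyte-derived dendritic gate, and those of the tingible body gate included Lgmn.

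Counts were summed per mouse and type, and 57 libraries of at least 10 cells were fitted together over 12186 genes with edgeR 4.0.16 (R 4.3.3), using TMM normalization, filterByExpr, the quasi-likelihood test and Benjamini-Hochberg adjustment over all genes at 0.05. Classes were compared as equal-weight means of their types. Alternatives used DESeq2 1.42.0, limma 3.58.1 with the mouse as a block, HTODemux of Seurat 5.3.0, Leiden clusters from scanpy 1.11.5 and leidenalg 0.10.2, and other filters. Libraries of a given mouse share their animal, which pairs the types; residuals of libraries of the same mouse had a median correlation of 0.131. The fit was also run on simulated counts, drawn independently for each library with no mouse effect. That run cannot bear on libraries that share a mouse. All 37 listed genes are named; of the 65 other lysosome genes, the 5 with the largest absolute log2 difference between macrophage-like and lymphoid-like cells among those past the threshold are named with values. The genes and lists were chosen with earlier results of these data known. Promoter windows and coordinates are from RefSeq on GRCm38.p6; motifs were searched on both strands, and 6 listed genes had no window. Amino acid sequences were not used here.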

Additional observations from a re-analysis of the deposited data

Results flagged for a closer look

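The 3176 cells that passed no gate entered no comparison, and the 37 lysosome genes made up 1.56% of their UMIs in immunized mouse 2. The same share was 1.09% in immunized mouse 1 and 0.792% and 1.15% in the unimmunized mice. The value of immunized mouse 2 was above both unimmunized mice, and it lay within the range of the gated monocyte-like libraries.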

How the results depend on the processing

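Against lymphoid-like cells, the 30 higher genes became 22 to 31 over 17 other settings, and 20 of them were called in each; 1 gene was lower with at least 30 cells per library and 0 in the others. Over the 99 called results of single genes and up to 19 other settings, 1392 of 1635 values kept direction and side of the threshold, 218 lost the threshold and 25 reversed. Against monocyte-like cells the 17 calls became 9 with capture 1 only, 11 with capture 2 only and 7 to 17 when a mouse was left out. Calls over all genes shifted as well. Against lymphoid-like cells 1562 of 10475 were higher with capture 1 only and 2691 of 11926 with HTODemux, in place of 1970 of 12186. Against monocyte-like cells 518 of 10475 were higher and 998 lower with capture 1 only. With capture 2 only these were 509 and 1245 of 10567, and in the main fit 575 and 1683 of 12186. Against dendritic-like cells the 23 calls became 15 with capture 2 only, where 608 of all 10567 genes were higher and 1001 lower. The main fit had 857 of 12186 higher and 1645 lower. Fewer of all genes were called against either class when any mouse was left out. Medullary sinus against other C1q-high cells gave 13 calls with capture 1 only. There 575 of all 10475 genes were higher and 482 lower, in place of 1234 and 1192 of 12186. The tingible body comparison could not be fitted in single captures, with Leiden clusters, with the stricter gate, at 30 cells per library or without unimmunized mouse 1. In these settings the macrophage class also held no type of that name. With Leiden clusters the cells were renamed by cluster rather than left out. There 204 of the 260 cells of the tingible body gate lay in 1 cluster, which did not bear that name. The part of these changes in the shifts was not tested.

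The 3 immunization calls became 33 with no filter on low counts and 9 without cells passing gates of 2 classes, a setting added after the data were seen. They became 0 with HTODemux, Leiden clusters, the stricter gate, at least 30 cells per library (2 types left) and capture 1 only (5 types left), and 1 to 34 when a mouse was left out. With the replicate block, the mouse as a random effect in limma-voom, 12 pairs were called in place of 3, which kept Ctsl in interferon-high cells and lost Cd63 in classical monocyte-like and Gm2a in migratory dendritic-like cells; the block, which pairs the types of a mouse, changed the other counts by at most 1. The interaction stayed at 0 calls in the 15 other settings that gave a value. With only the libraries of a type in its fit, all 3 immunization calls were lost and 4 other pairs were called. These were Ctss and Grn in alpha-beta T-like and Lgmn and Atp6v0c in type 2 conventional dendritic-like cells. With cells thinned to 2000 UMIs, Cd63 kept its call, Ctsl and Gm2a lost theirs, and Ctsc was called in classical monocyte-like cells. In both settings fewer of all genes were tested, and fewer were called in the 3 types of the main calls. Immunization calls over all genes shifted in other settings too. In classical monocyte-like cells 235 genes were higher with no filter on low counts, in place of 16. In migratory dendritic-like cells 152 were higher without cells passing gates of 2 classes, in place of 79. The cause of these shifts was not tested.

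With at least 30 cells per library, which leaves medullary sinus cells as the only macrophage-like type, the log2 difference reversed against lymphoid-like cells for Ctsd (-0.0087), Npc1 (-0.38) and Atp6ap1 (-0.045), against monocyte-like cells for Ctsd (-0.031), Dnase2a (-0.31), Hexa (-0.31) and Grn (-0.0054), and against dendritic-like cells for Ctsz (-0.34), Ctss (-0.76, edgeR adjusted p = 0.00074), Asah1 (-0.26), Dnase2a (-0.33), Hexa (-0.033) and Lamp2 (-0.22). With a mouse left out it reversed, in each case without unimmunized mouse 1, which gave the lower end of the range, for Npc1 against lymphoid-like cells (-1.21 to 0.49), for Dnase2a (-0.090 to 0.51), Glb1 (-1.24 to 0.98) and Grn (-0.022 to 0.59) against monocyte-like cells and for Dnase2a against dendritic-like cells (-0.045 to 0.43). With capture 1 only it reversed for Dnase2a (-0.053) and Glb1 (-1.32) against monocyte-like and Dnase2a (-0.019) against dendritic-like cells, with capture 2 only for Ctss (-0.16), Asah1 (-0.12) and Dnase2a (-0.010) against dendritic-like cells, and with the stricter gate for Glb1 against monocyte-like cells (-0.65). Except for Ctss at 30 cells, none of these reversed values passed the threshold.

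With library sizes alone in place of TMM, the all-gene median moved from -0.11 to -0.25 against lymphoid-like cells, where all genes split into 1666 higher and 2428 lower in place of 1970 and 1902. Against dendritic-like cells they split into 1198 and 1211 in place of 857 and 1645. With 2 mice per condition, small libraries of the unimmunized mice limit what can be seen of immunization, and a p that misses the threshold does not show that levels were alike.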

Other observations

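Cd68, a lysosomal membrane glycoprotein of the wider lysosome list, was also measured by antibody. As a mean over libraries its transcript was highest in tingible body macrophage-like cells, at 209 CPM in unimmunized mouse 1 and 418 and 407 CPM in the immunized mice, against 219 and 278 CPM in unimmunized and 170.0 and 210.0 CPM in immunized mice in medullary sinus macrophage-like cells. In unimmunized mouse 1 the tingible body value was thus below the medullary sinus value. The antibody signal, as a centred log ratio per cell averaged over cells, was 0.36 and 0.50 (unimmunized mice) and 0.41 and 0.36 (immunized mice) in medullary sinus cells and -0.72, -0.95 and -0.95 in tingible body cells of unimmunized mouse 1 and immunized mice 1 and 2. The lymphoid-like types all lay above these tingible body values, with a lowest ratio of -0.64 in alpha-beta T-like cells of immunized mouse 2. Their Cd68 transcript had a mean of 34.5 CPM, against 271 CPM in macrophage-like cells. Mean antibody counts per cell did not keep the order of the ratios. In unimmunized mouse 1 they were 21.8 in tingible body cells, above the lymphoid-like types (7.87 to 13.5). In immunized mice 1 and 2 they were 7.59 and 5.05, within the lymphoid-like ranges of 5.99 to 13 and 3.98 to 7.27. Whether the antibody signal stood above background was not tested. A centred log ratio is relative to the other antibodies on the same cell. The antibodies were put on cells before the live sort, and the paper presents their signal as that of cell surface proteins. CD68 inside late endosomes may thus not be read, and transcript and antibody signal need not run alike.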
